A study of Drosophila melanogaster with 8 samples.

Results

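Testes that carry mutations in both Tailor and Dis3L2 can be set against what each mutation did alone. The quantity described here, gene by gene, is how far the double mutant departed from the summed log2 effects of the single mutants: double minus Tailor minus Dis3L2 plus w1118. A departure of 0 means that the ratios of the single mutants to w1118, multiplied together, gave the level measured in the double mutant. A positive departure means that the double mutant lay above that product, and a negative departure that it lay below it. The contrast uses all 8 libraries of the series and was computed for 14246 of the 22887 features in the count table, of which 13489 were genes and 757 single transposon insertions.

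Total RNA came from dissected testes of 5-day-old Drosophila melanogaster in 4 genotypes: the control strain w1118, Tailor mutants, Dis3L2 mutants and Tailor/Dis3L2 double mutants, with 2 independent dissections and libraries each. The alleles, the parent strains, and whether single and double mutants carry the same alleles were not given in the sources used here. Each mutant group was compared as it came, so an effect of the mutations and a difference between strains cannot be told apart.

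Tailor is a terminal uridylyltransferase, an enzyme that adds uridines to the 3′ ends of RNAs. Dis3L2 is a 3′-to-5′ exonuclease that prefers RNAs with such a tail. The proteins bind each other in fly cytoplasm, where they are known for the removal of misprocessed RNA polymerase III transcripts and other structured noncoding RNAs, and Tailor also tails the hairpins of mirtrons, microRNA precursors made by splicing.

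Library totals ranged from 9781275 to 30059737 counts, the lowest in double mutant replicate 2. Ribosomal RNA features took from 1.43% of counts in Dis3L2 replicate 2 to 24.6% in Dis3L2 replicate 1. Germline, spermatocyte, spermatid and cyst cell markers (mei-P26, can, dj, eya) were counted in every library. Genes of tissue attached to the testis varied between libraries: the summed level of 33 accessory gland and ejaculatory duct genes ran from 7889 CPM (read counts scaled by library size) in Dis3L2 replicate 1 to 74740 CPM in Tailor replicate 1, and that of 37 midgut enzyme genes from 84.3 CPM in double mutant replicate 1 to 1256 CPM in w1118 replicate 2. In log2 CPM, replicates correlated at 0.984 in w1118, 0.976 in Dis3L2, 0.976 in the double mutant and 0.944 in Tailor. Tailor replicate 1 correlated more with double mutant replicate 1 (0.958) than with Tailor replicate 2. Tailor replicate 2 correlated more with w1118 replicate 2 (0.957) than with Tailor replicate 1. The Tailor libraries enter every departure. In bulk RNA, fewer cells of a type and less RNA per cell cannot be told apart.

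Of the targeted genes, Dis3l2 departed from the sum, and for Tailor no departure was detected. Tailor (3R:7083225-7086083, minus strand) stood at 82.6 and 87.0 CPM in w1118, 18.98 and 20.5 CPM in Tailor libraries, 96.8 and 95.6 CPM in the Dis3L2 mutant and 22.8 and 21.1 CPM in the double mutant. Both genotypes with the Tailor mutation were low without overlapping the others, and the departure was -0.03 ± 0.16 (log2, SE; adjusted p = 0.946, edgeR quasi-likelihood test). Dis3l2, listed in the table as CG16940 (3L:212709-216479, plus strand), stood at 115 and 116.6 CPM in w1118, 89.6 and 93.9 CPM in Tailor libraries, 9.99 and 10.6 CPM in the Dis3L2 mutant and 30.7 and 30.8 CPM in the double mutant. The libraries labelled double thus carried less Dis3l2 RNA than w1118 but more than the Dis3L2 libraries, with no overlap of any groups. Its departure was 1.91 ± 0.15 (adjusted p = 0.00254), and the level in the double mutant exceeded that in the Dis3L2 mutant by 1.58 ± 0.11 on the log2 scale (adjusted p = 7.53e-04). A count over a whole gene cannot show whether the RNA that remains is functional.

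Across all features, 581 were called (adjusted p at most 0.05), which is 4.08% of those tested: 284 positive (1.99%) and 297 negative (2.08%). They comprised 524 genes and 57 transposon insertions. Of these, 508 departed by at least 2-fold, and the median size of a called departure was 1.93 on the log2 scale, while the median over all features tested was -0.06, with quartiles at -0.54 and 0.35. At an unadjusted p of 0.05, 3173 of the 14246 features passed, the share beside which the unadjusted counts of the lists below stand. The calls rest on 4 residual degrees of freedom, and 50 of the 581 (30 positive, 20 negative) were called again in each of the 8 fits that left out 1 library; every call kept its sign in those fits. Of the genes described below, those 50 include CG16940 (Dis3l2), Dic61B, Ptpmeg, AstCC, CG7542, CG31517, CR45410, CR43940, CR44308, CG42370, Blm, Spn88Eb, CG11854, Nlg3, CG45072, Shawl, CR43150, CG8160, CG17177, CG43441, Spn42Da, Pex10, CG15630, LysD, LysE, CG33223, CG2118, CR45982, CR46039, CG9825, CR44777 and CR44824. The other called genes named below were not called in at least 1 of those fits. Leaving out either Tailor library raised the count to 956 or 1882, and leaving out any other library lowered it to between 70 and 112. A departure also depends on the scale: taken as a difference of mean CPM rather than as a ratio, 9 of the 581 had the opposite sign.

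**Figure D1:**
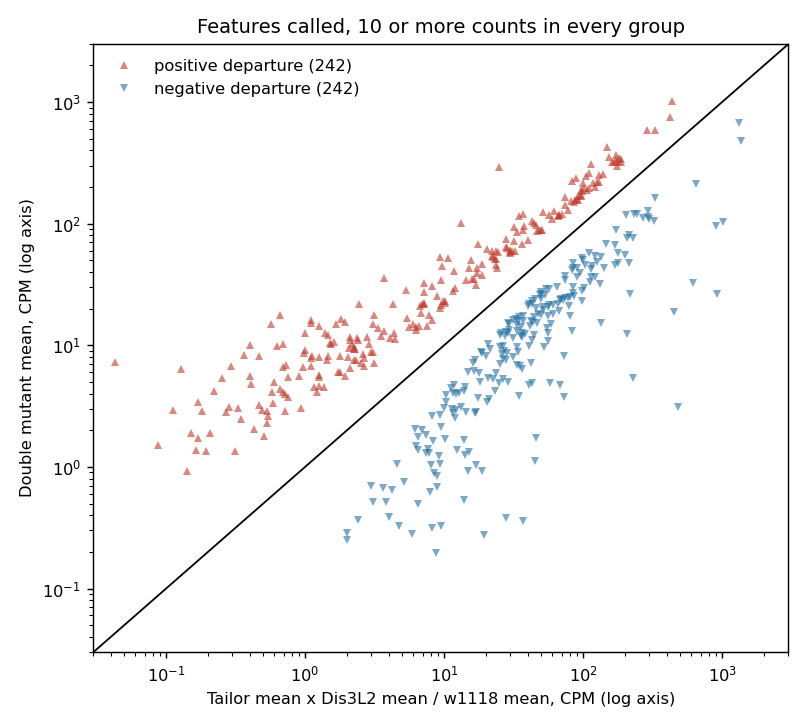
Mean CPM of the double mutant (vertical, log axis) against the CPM given by multiplying the single-mutant ratios (horizontal, log axis) for the 484 called features with at least 10 counts in every group; the line marks equality. The 242 positive departures lie above the line and the 242 negative ones below it.

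Among called features the double mutant mostly fell short of the sum, a class that the form of the contrast favours. For 460 called features both single mutants lay on the same side of w1118 and the departure pointed back towards w1118, for 10 it pointed further away, and for 111 the single mutants lay on opposite sides. Those 460 are 79.2% of the called features, beside 46.5% of all features tested. Among called features with both single mutants at least 2-fold from w1118, 153 fell short of the sum, 5 had single mutants on opposite sides and none went beyond. The same count over all features tested was not made. Both single-mutant ratios enter the departure with a minus sign, so calling by a large departure favours the first class. Over all features tested, 6623 fell short of the sum and 1666 went beyond it. The w1118 libraries enter both single-mutant ratios and the departure, so an error in w1118 alone also moves features into the first class. No test is given. Of the other 3 groups, the one nearest to the double mutant in fitted level was w1118 for 323 called features (55.6%), Tailor for 167 (28.7%) and Dis3L2 for 91 (15.7%). Over all features tested the shares were 31% for w1118, 28.2% for Tailor and 40.8% for Dis3L2.

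Called features were then sorted by which group stood at least 2-fold apart from the other 3, with those 3 within 2-fold of each other. In 88 the Dis3L2 mutant stood apart, in 36 w1118, in 29 the double mutant and in 12 the Tailor mutant. For the other 416 (71.6%, beside 92.9% of all features tested) no single group did. Over all features tested, the double mutant was apart low in 2.56% and high in 0.456%, and the Dis3L2 mutant low in 1.61% and high in 0.863%. For w1118 these shares were 0.667% and 0.365%, and for Tailor 0.274% and 0.309%. The sorting uses the same fitted levels as the departure and describes it.

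**Figure D2:**
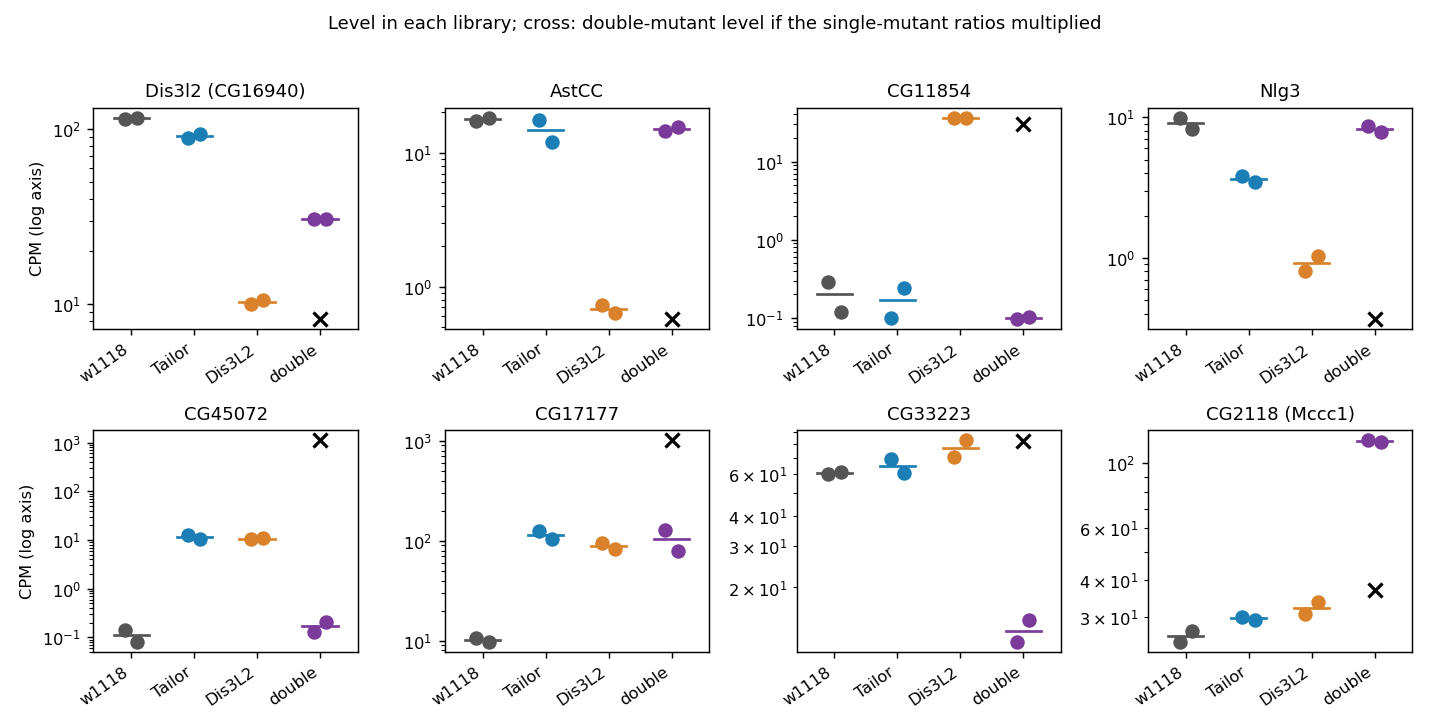
CPM (log axis, scaled separately in each panel) of 8 genes in the 2 libraries of each genotype, with bars at the group means and a cross at the double-mutant level that multiplied single-mutant ratios would give. For AstCC and CG11854 only the Dis3L2 libraries stand apart, for Nlg3 and CG45072 both single mutants do, for CG17177 only w1118, and for CG33223 and CG2118 only the double mutant, while Dis3l2 has a level of its own in each genotype.

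Among called features, the largest of these sets was low or high in Dis3L2 mutant testes and within 2-fold of w1118 when Tailor was mutated as well. In it 58 were low (9.98% of called features) and 30 high (5.16%). AstCC, a neuropeptide of the allatostatin C family (2L:11083459-11085229), stood at 17.4 and 18.3 CPM in w1118, 17.5 and 12.1 CPM in Tailor, 0.733 and 0.642 CPM in Dis3L2 and 14.6 and 15.5 CPM in the double mutant. Only the Dis3L2 libraries were low, and the departure was 4.72 ± 0.33 (adjusted p = 0.00129). The serine protease-like gene CG7542 stood at 22.4 and 19.7 CPM in w1118, 12.3 and 11.6 CPM in Tailor, 0.133 and 0.0428 CPM in Dis3L2, where the group held 3 counts in all, and 11.9 and 13.1 CPM in the double mutant (adjusted p = 4.56e-04). Its double mutant and Tailor libraries overlapped, below w1118.

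Blm, the fly Bloom helicase, which resolves recombination intermediates, had 67.5 and 70.5 CPM in w1118, 52.8 and 67.3 CPM in Tailor, 18.0 and 12.4 CPM in Dis3L2 and 99.7 and 103 CPM in the double mutant. Here the double mutant was the highest group, and the departure was 2.94 ± 0.28 (adjusted p = 0.00461). Spn88Eb, a serpin, showed the same order, with 8.82 and 8.58 CPM in w1118, 1.06 and 1.33 CPM in Dis3L2 and 17.4 and 15.7 CPM in the double mutant (departure 3.16 ± 0.25, adjusted p = 0.00254). Blm, Spn88Eb and the genes of the next paragraph were chosen for description after their values were seen. The set of low genes also held 3 uncharacterized protein-coding or noncoding genes of low p: CG31517 at 0.533 and 0.471 CPM in Dis3L2 and 7.51 to 10.9 CPM elsewhere, CR45410 at 0.799 and 0.942 CPM against 10.9 to 18.1 CPM, and CR43940 at 0.466 and 0.899 CPM against 9.31 to 20.9 CPM.

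Of the 30 genes high in Dis3L2 alone, 6 with known roles are given here. Lac, an immunoglobulin-domain protein of septate junctions, stood at 49.4 and 50.3 CPM in w1118, 50.4 and 52.6 CPM in Tailor, 129 and 113 CPM in Dis3L2 and 51.3 and 44.7 CPM in the double mutant (departure -1.38 ± 0.18, adjusted p = 0.0132). The claudin-like sinu stood at 44.6 and 39.3 CPM in Dis3L2 and from 14.8 to 20.6 CPM elsewhere. Tsf2, a transferrin needed at septate junctions, stood at 93.2 and 96.2 CPM in Dis3L2 and from 30.0 to 42.0 CPM elsewhere (departure -1.78 ± 0.18, adjusted p = 0.00587). The integrin gene scb (170.5 and 207.3 CPM against 67.1 to 87.0 CPM) and the transmembrane protein gene kek1 (29.7 and 45.0 CPM against 6.34 to 11.9 CPM) had the same form, as did Der-1, a factor of protein export from the endoplasmic reticulum, at 103 and 112 CPM in Dis3L2 and 40.6 to 50.8 CPM elsewhere. The 3 cyst cell or hub genes of lowest p, Fas3, puc and Socs36E, gave adjusted p-values of 0.0969, 0.19 and 0.262, and none of the 16 cyst and hub genes tested was called (2 at an unadjusted p under 0.05). CG11854 was the extreme of this set, at 35.6 and 36.5 CPM in Dis3L2 and at most 0.291 CPM in any other library, with 4 to 9 counts in each of those groups (adjusted p = 0.00486). It overlaps bam on the opposite strand, and the strand setting of the counting is not given in the sources used here, but bam itself lay between 3.31 and 4.07 CPM in all libraries.

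A class defined after the values were seen held features that moved the same way by at least 2-fold in both single mutants. The double mutant had to lie within 2-fold of w1118 and at least 2-fold from both single mutants. Of all features tested, 59 were high in both single mutants in this way, of which 20 were called. Another 24 were low in both, of which 17 were called. Over all features tested 4.08% were called, but the definition itself sets a large departure for every member. The higher shares called follow from it and are no result. Nlg3, a neuroligin, which is a synaptic adhesion protein (3R:7570281-7639434), stood at 9.94 and 8.22 CPM in w1118, 3.81 and 3.46 CPM in Tailor, 0.799 and 1.03 CPM in Dis3L2 and 8.73 and 7.9 CPM in the double mutant. The single mutants were low without overlap, the double mutant overlapped w1118, and the departure was 4.49 ± 0.33 (adjusted p = 0.00172). CG45072 (3R:30122023-30123263) gave the lowest p of all features: 0.145 and 0.0802 CPM in w1118, 12.9 and 10.49 CPM in Tailor, 10.3 and 11.1 CPM in Dis3L2 and 0.128 and 0.208 CPM in the double mutant (adjusted p = 1.98e-04). It was counted in both single mutants and nearly absent, with 5 and 6 counts, from w1118 and the double mutant.

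The potassium channel gene Shawl stood at 1.65 and 1.32 CPM in w1118, 4.21 and 3.7 CPM in Tailor, 5.93 and 8.13 CPM in Dis3L2 and 0.802 and 1.04 CPM in the double mutant (departure -4.38 ± 0.42, adjusted p = 0.00486). Shawl overlaps an antisense RNA and Aldh, so its reads may not all be its own. The noncoding RNA CR43150 had the opposite pattern, at 4.17 and 4.49 CPM in w1118, 0.551 and 0.562 CPM in Tailor, 1.26 and 1.54 CPM in Dis3L2 and 2.79 and 3.01 CPM in the double mutant. Of the 37 called members of this class, 19 (9 high and 10 low) had fewer than 10 counts in at least 1 group.

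The Sdic cluster on the X chromosome, tandem copies of a testis-expressed dynein intermediate chain gene that arose by fusion of sw and AnxB10, was low in both single mutants. The copies are nearly identical, so reads may be divided among them in ways the files do not show, and their counts were also summed. The sum over 7 copies was 198 and 187 CPM in w1118, 109 and 133 CPM in Tailor, 137 and 157 CPM in Dis3L2 and 204 and 211 CPM in the double mutant. Both single mutants lay below w1118 and the double mutant above it, without overlap, and the departure of the sum was 1.16 ± 0.19 (adjusted p = 0.0261). Singly, 4 copies were called, Sdic3, Sdic4, SdicA (CG46275) and SdicC (CG46277), with departures from 1.41 to 2.07. The neighbour sw, which encodes the dynein intermediate chain used in all cells, had a departure of 0.45 with an adjusted p of 0.313. The sum was chosen after the values of the copies were seen.

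In 36 called features w1118 stood apart from all 3 mutants, 32 low and 4 high. CG17177 stood at 10.6 and 9.71 CPM in w1118, 124 and 104 CPM in Tailor, 96.02 and 83.6 CPM in Dis3L2 and 128 and 79.8 CPM in the double mutant. All mutants shared the high level, and the departure was -3.28 ± 0.32 (adjusted p = 0.00496). The serpin Spn42Da, the peroxisome assembly gene Pex10 and the cytochrome P450 gene Cyp4p1 had the same form: Spn42Da stood at 10.1 and 10.3 CPM in w1118 and from 30.4 to 45.5 CPM in the mutants, Pex10 at 4.41 and 4.25 CPM against 15.5 to 21.1 CPM, and Cyp4p1 at 3.35 and 3.05 CPM against 14.3 to 22.3 CPM. The reverse pattern was seen for CG15630, annotated as fipi, at 21.2 and 21.0 CPM in w1118 and from 1.05 to 1.86 CPM in the mutants (departure 4.14 ± 0.35, adjusted p = 0.00261). A level shared by 3 mutant groups and not by w1118 gives a departure equal and opposite to that shared difference. Whether these features differ with the mutations or with the strains cannot be told apart.

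Lysozyme genes, close paralogs that encode digestive enzymes of the midgut, were among the genes with w1118 apart. LysD stood at 0.679 and 1.48 CPM in w1118, 45.3 and 35.9 CPM in Tailor, 23.5 and 25.6 CPM in Dis3L2 and 24.4 and 27.9 CPM in the double mutant (departure -5.11 ± 0.42, adjusted p = 0.00261). LysE had the opposite order, at 103 and 96.2 CPM in w1118 and between 9.39 and 25.8 CPM in the mutants (departure 2.27 ± 0.19, adjusted p = 0.00261). The counts of LysB, LysC, LysD and LysE summed, an alternative chosen after the data were seen, were 105 and 98.8 CPM in w1118, 87.7 and 71 CPM in Tailor, 39.1 and 44.0 CPM in Dis3L2 and 42.0 and 49.97 CPM in the double mutant. The sum was not called (departure 0.50 ± 0.22, adjusted p = 0.228).

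The double mutant alone stood apart in 29 called features, 20 low and 9 high. CG33223 (X:8465690-8483885) stood at 59.8 and 61.2 CPM in w1118, 69.4 and 60.9 CPM in Tailor, 71.0 and 83.2 CPM in Dis3L2 and 11.8 and 14.5 CPM in the double mutant. Only the double mutant was low, and the departure was -2.67 ± 0.22 (adjusted p = 0.00261). CG2118, annotated as Mccc1, a subunit of the leucine-degrading enzyme methylcrotonoyl-CoA carboxylase, stood at 24.5 and 26.9 CPM in w1118, 29.9 and 29.3 CPM in Tailor, 30.7 and 33.5 CPM in Dis3L2 and 120 and 119 CPM in the double mutant (departure 1.69 ± 0.17, adjusted p = 0.00496). CG2118 overlaps faf on the other strand and CG33223 overlaps 6 genes, so antisense reads cannot be set apart.

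Other genes of this set, chosen after their values were seen, were 3 transcription factor genes known from embryonic patterning. The Hox gene pb stood at 7.9 and 8.1 CPM in the double mutant and from 2.35 to 3.97 CPM elsewhere, inv at 30.7 and 34.5 CPM against 7.86 to 16.0 CPM, and disco-r at 10.8 and 13.0 CPM against 2.33 to 3.66 CPM. Their adjusted p-values were 0.0167, 0.0408 and 0.0463. Among the low genes, CG33773 stood at 0.128 and 0.312 CPM in the double mutant and from 9.26 to 18.2 CPM elsewhere. Leaving out double mutant replicate 1 ended the calls of CG33773 and of the noncoding RNA CR44735, with adjusted p-values of 0.0609 and 0.0584. The receptor-like gene mthl8 had no count in either double mutant library and 3.31 to 8.18 CPM in the others. Cyp310a1, a cytochrome P450, stood at 7.58 and 6.23 CPM in the double mutant and from 19.2 to 45.8 CPM elsewhere (departure -2.27 ± 0.30, adjusted p = 0.0139); its call ended without any w1118, Dis3L2 or double mutant library, with adjusted p-values up to 0.0797.

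The Tailor mutant stood apart in 12 called features. CG45154 stood at 8.62 and 6.39 CPM in Tailor and from 15.5 to 28.9 CPM elsewhere (departure 2.44 ± 0.28, adjusted p = 0.00833). PH4alphaSG1, a prolyl hydroxylase subunit of the kind that modifies collagen, stood at 31.4 and 24.3 CPM in Tailor and from 3.43 to 9.63 CPM elsewhere (departure -3.09 ± 0.42, adjusted p = 0.0152). Either call ended in 4 of the fits without a library, including both without w1118 libraries, with adjusted p-values up to 0.0547 and 0.0857.

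Features in which no single group stood apart were also among those of lowest p. CR45982, a noncoding RNA that lies antisense to Pxn, had 0.582 and 0.562 CPM in w1118, 5.46 and 3.94 CPM in Tailor, 53.2 and 64.5 CPM in Dis3L2 and 3.72 and 2.49 CPM in the double mutant (departure -7.22 ± 0.39, adjusted p = 5.53e-04). The double mutant stood near the Tailor mutant and far from the product of 483 CPM. CR46039, inside myd on the same strand, had 7.81 and 7.86 CPM in w1118, 15.9 and 12.5 CPM in Tailor, 0.0666 and 0.0856 CPM in Dis3L2 and 20.6 and 23.1 CPM in the double mutant. CG9825 was nearly absent from the Tailor mutant, at 0.1 and 0.161 CPM, and stood at 14.6 and 14.2 CPM in w1118, 5.46 and 6.21 CPM in Dis3L2 and 9.28 and 6.13 CPM in the double mutant, which overlapped Dis3L2.

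The remaining members of the 12 largest called departures in each direction, among genes with at least 5 CPM in the highest group and 10 counts in every group, had these levels. Positive were CR43621 (5.59 ± 0.69), CG43740 (4.51 ± 0.93), CG42370, annotated as Nepl6, a neprilysin-like protease gene (4.501 ± 0.38), CG14142 (4.39 ± 0.64), CG5945 (4.36 ± 0.82) and CR44308 (4.12 ± 0.43), with adjusted p-values from 0.00261 to 0.0463. In all 6 the Dis3L2 mean lay below those of w1118 and the double mutant; CR43621 was lower still in Tailor, at 0.2 and 0.924 CPM against 2.53 and 2.35 CPM in Dis3L2, 10.4 and 11.03 CPM in w1118 and 7.25 and 5.51 CPM in the double mutant.

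Negative were CG8160 (-6.93 ± 0.75), CG43795 (-5.84 ± 0.84), CG9572 (-4.70 ± 0.62), the insertion copia{}1016 (-4.65 ± 0.79), CG43441 (-4.59 ± 0.35) and CG5773 (-4.27 ± 0.91), with adjusted p-values from 0.00192 to 0.0488. CG8160 stood at 0.582 and 0.281 CPM in w1118, 2.35 and 1.57 CPM in Tailor, 9.12 and 7.19 CPM in Dis3L2 and 0.193 and 0.519 CPM in the double mutant, which overlapped w1118. CG9572 was high in Dis3L2 only, at 5.99 and 8.47 CPM. CG43795 was highest in Tailor, at 6.96 and 5.83 CPM. It was also above w1118 (0.194 and 0.361 CPM) in Dis3L2, at 0.533 and 1.155 CPM, without overlap. CG5773 varied between the Tailor libraries, at 14.8 and 67.7 CPM.

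Many features near Dis3l2 were called. Within 1 Mb of the gene, 17 of 134 features tested were called (12.7%), 13 of them positive, and within 2 Mb 30 of 278 (10.8%), beside 4.08% over all features. Around Tailor the share was 10 of 235 (4.26%) within 1 Mb. When the arms were cut into windows of 1 Mb, 118 held at least 50 features, with a median share called of 3.55%. The window with Dis3l2 had 12.9% called, a window on X 13.2% and a window on 3R 11.2%. In the stretch from Pdk1 to Ptpmeg, whose starts lie at -83.3 and 115.4 kb from that of Dis3l2, 33 genes other than Dis3l2 had at least 10 CPM in w1118. All 33 lay below w1118 in Dis3L2 libraries, at a median of -1.04 on the log2 scale, or 48.8% of the w1118 level. For the same genes the median was -0.11 in Tailor libraries and also -0.11 in double mutant libraries. Their departures were therefore mostly positive, 32 of 33, with a median of 1.00, and 10 were called positive and none negative.

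Pdk1, the kinase that activates Akt, shows the pattern at 226.5 and 220.8 CPM in w1118, 180.6 and 181 CPM in Tailor, 113 and 107 CPM in Dis3L2 and 225 and 250.0 CPM in the double mutant (departure 1.42 ± 0.16, adjusted p = 0.00689). Dic61B, a dynein intermediate chain of cilia and sperm tails, stood at 77.3 and 78.7 CPM in w1118, 52.3 and 48.2 CPM in Tailor, 26.6 and 28.1 CPM in Dis3L2 and 65.1 and 69.8 CPM in the double mutant (departure 1.93 ± 0.16, adjusted p = 0.00261). The phosphatidylinositol 4-kinase gene fwd, which is needed for spermatocyte cytokinesis, stood at 103 and 95.0 CPM in Dis3L2 and between 162 and 236 CPM in the other libraries (departure 1.43 ± 0.20, adjusted p = 0.0167). The remaining 38 genes of this level within 700 kb had a Dis3L2 median of -0.004 and a departure median of -0.05, with 1 called. The edges of the stretch were set after the values were seen. Over 7578 stretches of 15 consecutive genes, the highest median departure, 1.07, lay in this stretch, and the highest outside it, 0.66, began at Sdic1. The lowest, -2.42, was farther from 0 and lay on X, from CG42346 to a ribosomal RNA pseudogene. The lowest median ratio of Dis3L2 to w1118 also lay elsewhere, at -2.44 on the log2 scale from CR44308 to CR44311 on 2L.

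**Figure D3:**
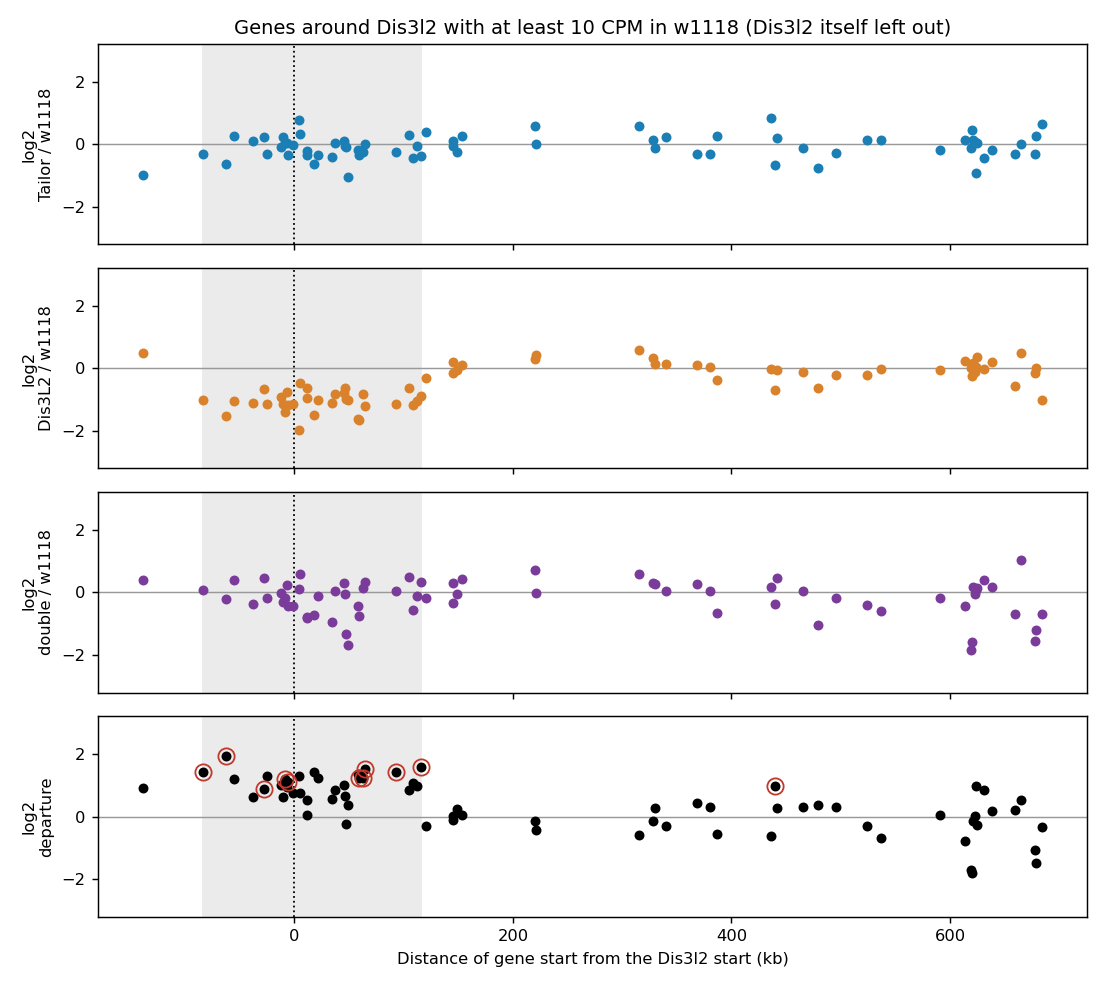
Log2 ratio to w1118 in the Tailor, Dis3L2 and double mutants, and log2 departure, of 71 genes with at least 10 CPM in w1118, by distance of their start from that of Dis3l2 in kb; the grey band runs from Pdk1 to Ptpmeg and red rings mark called genes. In the band all 33 Dis3L2 ratios lie below 0 with a median of -1.04, while those of the other 2 genotypes scatter around 0.

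Most of these neighbours share with Dis3l2 a level in the double mutant that lay above that in the Dis3L2 mutant. The exceptions were CR42862, snoRNA:Tudor-SN-a and snoRNA:Psi18S-996, none of them called. The sources used here do not say whether the Dis3L2 mutation is the same in both genotypes or whether neighbouring DNA is missing in either. For the 11 called genes of the stretch, Dis3l2 included, a change in the local DNA of the Dis3L2 libraries and an effect of the second mutation cannot be told apart. Some called genes described above start near a targeted gene but outside the stretch. From Dis3l2, mthl8 lies at -190.3 kb and CR43150 at -141.9 kb. From Tailor, pb lies at -375.4 kb and Nlg3 at 487.1 kb. Whether local DNA differs between the genotypes at these genes was not tested.

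Transposon insertions were called in 57 of 757 cases (7.53%), 24 positive and 33 negative, but copies of a family share sequence and the handling of reads with several positions was not given in the sources used here. Family sums were therefore also tested, an alternative added after the data were seen. Of 116 families, 4 had a positive departure (HeT-A, Burdock, Tirant and diver) and 5 a negative one (Doc2-element, 3S18, Idefix, gtwin and mdg3). That fit called 483 of 13605 features, and 35 families had an unadjusted p under 0.05. Doc2-element had 1 insertion in the table, so its sum is that insertion and does not address reads shared between copies. Most of the called families are long terminal repeat retrotransposons. HeT-A is a non-LTR element of fly telomeres.

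HeT-A summed to 196 and 214 CPM in w1118, 112 and 108 CPM in Tailor, 77.2 and 69.0 CPM in Dis3L2 and 150 and 150 CPM in the double mutant. Each single mutant lay below w1118 and the double mutant between, without overlap, and the departure was 1.94 ± 0.16 (adjusted p = 0.00261). Burdock summed to 50.1 and 40.3 CPM in w1118, 84.1 and 71.1 CPM in Tailor, 7.49 and 7.05 CPM in Dis3L2 and 126 and 93.6 CPM in the double mutant. It was low in the Dis3L2 mutant and highest in the double mutant, with a departure of 3.14 ± 0.27 (adjusted p = 0.00296), and 9 of its 15 insertions tested were called, all positive. Tirant had 7.92 and 8.52 CPM in w1118, 3.55 and 3.31 CPM in Tailor, 1.4 and 0.641 CPM in Dis3L2 and 4.74 and 3.3 CPM in the double mutant (departure 3.30 ± 0.51, adjusted p = 0.0217). The Dis3L2 libraries were lowest, and the double mutant overlapped Tailor.

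3S18 summed to 284 and 302 CPM in w1118, 225 and 366 CPM in Tailor, 548 and 549 CPM in Dis3L2 and 156 and 164 CPM in the double mutant. It was highest in the Dis3L2 mutant and lowest in the double mutant (departure -1.79 ± 0.30, adjusted p = 0.0295). Idefix had 22.5 and 19.8 CPM in Dis3L2 and 7.64 to 11.4 CPM elsewhere (departure -1.52 ± 0.26, adjusted p = 0.0295), and mdg3 50.4 and 36.8 CPM against 15.3 to 22.9 CPM (departure -1.57 ± 0.31, adjusted p = 0.0427). Among 5 families with at least 2 called insertions whose sum was not called were copia, with 4 of 21 insertions negative and a sum at -2.50 ± 0.69 (adjusted p = 0.0959), HMS-Beagle, with 6 of 14 negative and a sum at -0.93 ± 0.27 (adjusted p = 0.103), and jockey, with 5 of 40 negative and a sum at -0.98 ± 0.37 (adjusted p = 0.178). The others were Rt1b, with 3 of 14 negative and a sum at -0.88 ± 0.20 (adjusted p = 0.0613), and micropia, with 2 of 4 positive and a sum at 1.97 ± 0.44 (adjusted p = 0.0576).

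**Figure D4:**
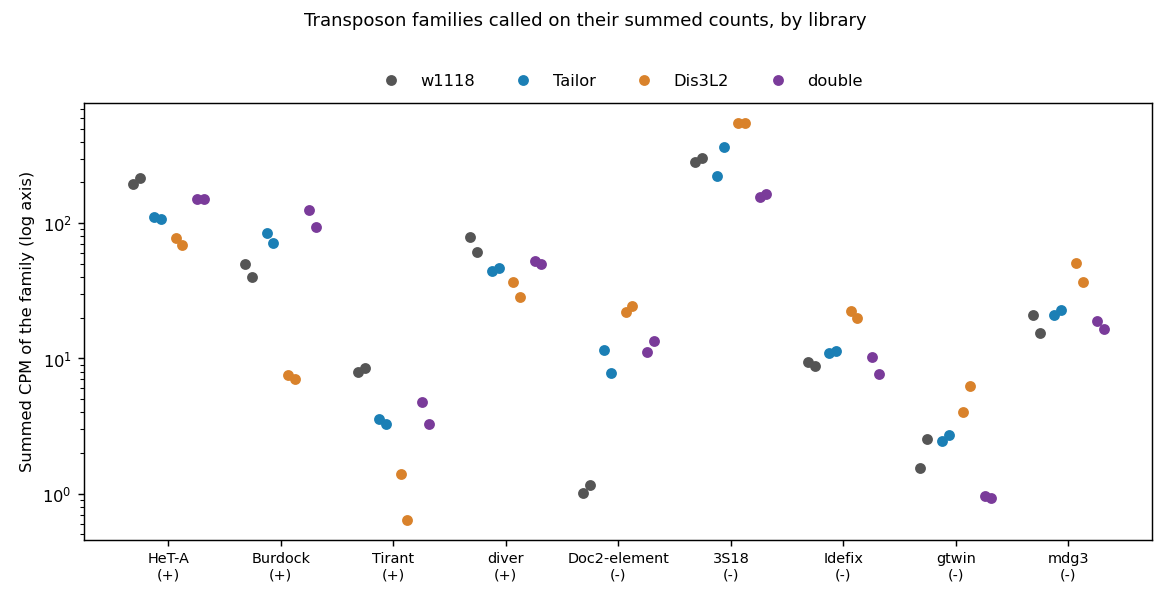
Summed CPM (log axis) in each library of the 9 transposon families called on their summed counts, with the sign of the departure under the name. Doc2-element is a single insertion. Burdock, Tirant and HeT-A are lowest in the Dis3L2 libraries and higher in the double mutant, while 3S18, Idefix and mdg3 are highest in the Dis3L2 libraries.

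The piRNA and siRNA pathway, which silences transposons in the gonad, had 2 of 34 genes called, both positive (5.88%, beside 4.08% overall), with a median of 0.10. The Rhino partner gene del stood at 60.2 and 68.3 CPM in w1118, 41.2 and 42.5 CPM in Tailor, 27.4 and 25.98 CPM in Dis3L2 and 45.0 and 41.1 CPM in the double mutant (departure 1.31 ± 0.18, adjusted p = 0.0152). The RNA helicase gene armi had a departure of 0.84 ± 0.18 (adjusted p = 0.0491). Leaving out any single w1118, Dis3L2 or double mutant library ended both calls, with adjusted p-values up to 0.1001 for del and 0.234 for armi.

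Small structured RNAs, the class for which Tailor and Dis3L2 are best known, had departures mostly below 0 with few calls. Among 142 snoRNAs and scaRNAs, which guide RNA modification, 130 were below 0, with a median of -1.42, and 3 were called, all negative (2.11%, beside 4.08% overall). Their summed level was 3211 and 1923 CPM in w1118, 2027 and 2955 CPM in Tailor, 2445 and 2100 CPM in Dis3L2 and 1061 and 668 CPM in the double mutant. Both double mutant libraries were below the other 6, while the w1118 libraries and the Tailor libraries differed widely between themselves. scaRNA:MeU2-48 stood at 0.225 and 0.208 CPM in the double mutant and from 2.77 to 6.39 CPM elsewhere (departure -4.65 ± 0.72, adjusted p = 0.0201), and snoRNA:Psi18S-1854b, in an intron of RpS5a, at 1.44 and 0.623 CPM against 9.03 to 20.6 CPM (departure -3.86 ± 0.64, adjusted p = 0.0259). Both calls ended without any w1118, Dis3L2 or double mutant library, with adjusted p-values up to 0.103 and 0.111. The snoRNA host genes, from whose introns many of these RNAs are cut, had a median of -0.23 over 6 genes and no call (1 at an unadjusted p under 0.05).

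All 29 spliceosomal snRNAs had departures below 0, with a median of -0.85, 6 at an unadjusted p under 0.05 and none called. The 11 RNA polymerase III transcripts tested, among them RNase P and RNase MRP RNA, had a median of -0.65, 2 at an unadjusted p under 0.05 and none called. RNaseP:RNA stood at 373 and 211 CPM in w1118, 228 and 346 CPM in Tailor, 260 and 226 CPM in Dis3L2 and 115 and 93.6 CPM in the double mutant (departure -1.19 ± 0.42, adjusted p = 0.156). The Tailor and w1118 replicates of this RNA differed from each other by over 1.5 times, and the departure did not pass the test. Of 297 tRNAs in the table, 5 passed the count filter and none was called or had an unadjusted p under 0.05. Many of these RNAs have several near-identical copies, between which reads may be divided.

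Of 1609 genes with CR symbols, which include pseudogenes as well as noncoding RNAs, 68 were called positive and 57 negative. That is 7.77%, beside 4.08% of all features, and their median was 0.11. By annotated class, 118 of 1528 noncoding RNA features tested were called (7.72%). CR genes are considered further here. Most are of low level, and several are among the genes of lowest p described above. Beyond those, CR44777 stood at 0.485 and 0.281 CPM in w1118, 14.9 and 10.8 CPM in Tailor, 6.59 and 6.98 CPM in Dis3L2 and 5.04 and 5.71 CPM in the double mutant (departure -5.41 ± 0.41, adjusted p = 0.00192). CR44824 stood at 3.1 and 2.29 CPM in w1118, 0.25 and 0.241 CPM in Tailor, 0.733 and 0.214 CPM in Dis3L2 and 7.16 and 7.38 CPM in the double mutant (departure 7.44 ± 0.73, adjusted p = 0.00496). No gene of RNA decay (31 tested, median 0.03, 9 at an unadjusted p under 0.05) and no other terminal nucleotidyltransferase (5 tested, median 0.17, 1 at an unadjusted p under 0.05) was called. The deadenylase subunit gene Pop2 came nearest, at 128 and 135 CPM in w1118, 124 and 124 CPM in Tailor, 148 and 151 CPM in Dis3L2 and 208 and 211 CPM in the double mutant (departure 0.57 ± 0.14, adjusted p = 0.0711).

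Germline lists had small departures, mostly above 0, and 1 call each in 3 lists. The shares called were 5.88% of early germline, 5.88% of meiotic arrest and 3.57% of spermiogenesis genes, beside 4.08% of all features. In early germline genes 1 of 17 was called, mei-P26, a regulator of the exit from germline divisions, at 186.1 and 186.4 CPM in w1118, 105 and 134 CPM in Tailor, 255 and 247 CPM in Dis3L2 and 321.5 and 324 CPM in the double mutant. The Tailor mutant was low and the double mutant highest, and the departure was 1.00 ± 0.20 (adjusted p = 0.0406). Among meiotic arrest genes 1 of 17 was called, topi, which activates spermatocyte transcription, with 59.8 and 60.9 CPM in w1118, 44.7 and 44 CPM in Tailor, 39.02 and 41.8 CPM in Dis3L2 and 61.0 and 54.6 CPM in the double mutant. Both single mutants were lower and the double mutant overlapped w1118 (departure 0.96 ± 0.17, adjusted p = 0.0295).

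Among spermiogenesis genes 1 of 28 was called, Tpl94D, a transition protein of sperm chromatin, at 425 and 463 CPM in w1118, 431 and 360.0 CPM in Tailor, 321 and 324 CPM in Dis3L2 and 578 and 597 CPM in the double mutant (departure 1.03 ± 0.19, adjusted p = 0.0356). The list medians were 0.17, 0.30 and 0.31, and 22 of 28 spermiogenesis genes were above 0, beside 46% of all features. The cup and comet genes, transcribed after meiosis, had a median of 0.46 over 12 genes. None was called, with r-cup nearest (adjusted p = 0.0503). An unadjusted p under 0.05 was found for 5 of the 12, beside 3173 of all 14246 features tested. Y-linked fertility genes (median -0.17, 12 tested, 2 at an unadjusted p under 0.05) and testis proteasome subunits (median -0.02, 14 tested, 2 at an unadjusted p under 0.05) held no call. The calls of mei-P26, topi and Tpl94D each ended when any w1118, Dis3L2 or double mutant library was left out, with adjusted p-values up to 0.196, 0.150 and 0.167.

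**Figure D5:**
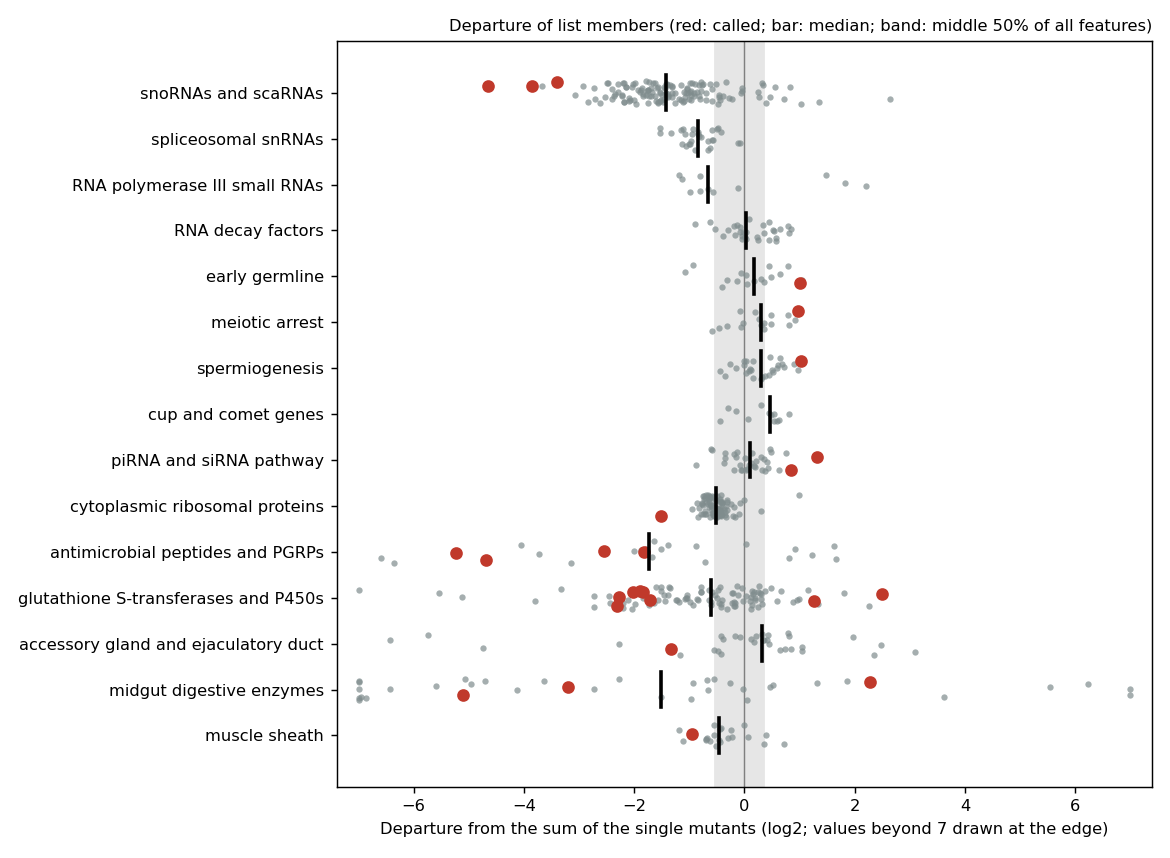
Log2 departure (horizontal) of every tested member of 15 gene lists, with called members in red, a bar at each list median and a grey band over the interquartile range of all features; 8 members beyond 7 are drawn at the edge. The snoRNA median is -1.42 with 3 red points at its low end, ribosomal protein genes crowd below 0, and the germline medians lie between 0.17 and 0.46.

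Ribosomal protein genes had departures below 0 in 86 of 88 cases, with a median of -0.52. Their summed level was 26990 and 24190 CPM in w1118, 23420 and 33380 CPM in Tailor, 16770 and 20250 CPM in Dis3L2 and 13830 and 14720 CPM in the double mutant, the lowest group. Only RpS28a, a close paralog of another RpS28 gene, was called (departure -1.51 ± 0.31, adjusted p = 0.0455); 21 of 88 had an unadjusted p under 0.05. Leaving out any w1118, Dis3L2 or double mutant library ended that call, with adjusted p-values up to 0.191.

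Antimicrobial peptide and peptidoglycan recognition genes, which act in innate immunity, had 4 of 24 called, all negative (16.7%, beside 4.08% overall and 2.08% negative), with a median of -1.73. CecA1, a cecropin, stood at 34.4 and 26.8 CPM in w1118, 38.9 and 41.0 CPM in Tailor, 69.3 and 81.0 CPM in Dis3L2 and 30.4 and 25.1 CPM in the double mutant (departure -1.81 ± 0.25, adjusted p = 0.0150). It was highest in the Dis3L2 mutant, and the double mutant overlapped w1118. CecA2, AttB and PGRP-LF were above w1118 in both single mutants: AttB stood at 0.436 and 0.281 CPM in w1118, 1.35 and 3.42 CPM in Tailor, 6.13 and 7.36 CPM in Dis3L2 and 1.6 and 0.623 CPM in the double mutant (departure -5.22 ± 0.83, adjusted p = 0.0215). Leaving out single libraries ended these calls in 5 fits for CecA1 and in 6 for CecA2 and AttB.

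Detoxification enzymes, the glutathione S-transferases and cytochrome P450s, had 2 positive and 6 negative calls in 102 genes (7.84%, beside 4.08% overall), with a median of -0.60. The 6 negative calls were all P450 genes: Cyp4p1 and Cyp310a1, described above, and Cyp4p3, Cyp6a9, Cyp6a23 and Cyp6d4. Cyp4p3 stood at 71.9 and 60.6 CPM in w1118, 86.2 and 106 CPM in Tailor, 129 and 147 CPM in Dis3L2 and 64.8 and 45.9 CPM in the double mutant (departure -1.84 ± 0.28, adjusted p = 0.0188). Both single mutants lay above w1118, and the double mutant overlapped it; the call ended in 5 fits without a library, with adjusted p-values up to 0.106. The 2 positive calls were GstE1, at 26.7 and 28.9 CPM in the double mutant and from 13.0 to 17.3 CPM elsewhere, and GstE10, which was low in the Dis3L2 mutant only, at 1.53 and 1.28 CPM.

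Of 12 eye pigment genes 2 were called, both negative (16.7%, beside 4.08% overall), and the list median was -0.06. The gene w, which encodes a pigment precursor transporter and is partly deleted in the w1118 allele, stood at 5.96 and 6.18 CPM in w1118, 9.97 and 7.71 CPM in Tailor, 41.6 and 50.2 CPM in Dis3L2 and 18.8 and 19.3 CPM in the double mutant (departure -1.81 ± 0.25, adjusted p = 0.0163). Hn, phenylalanine hydroxylase, stood at 2.52 and 2.05 CPM in w1118, 16.9 and 16.0 CPM in Tailor, 15.1 and 18.5 CPM in Dis3L2 and 37.3 and 36.0 CPM in the double mutant (departure -1.73 ± 0.25, adjusted p = 0.0167). Here the double mutant was the highest group and still below the product of 121 CPM. Leaving out either w1118 library, either double mutant library or Dis3L2 replicate 2 ended both calls, with adjusted p-values up to 0.091 for w and 0.0915 for Hn.

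In lists for other tissues the share called lay on both sides of the 4.08% over all features. The accessory gland list had 1 of 33 called (3.03%), EbpIII, negative, with a list median of 0.33. The fat body list had 1 of 16 (6.25%), Apoltp, negative, with a list median of 0.49. The muscle list had 1 of 22 (4.55%), Mlc2, negative, with a list median of -0.46. Blood cells had none of 10 (median 0.07, 1 at an unadjusted p under 0.05). EbpIII, an ejaculatory bulb protein, was highest in the Dis3L2 mutant, at 89.2 and 122 CPM against 31.9 to 44.6 CPM elsewhere, whereas the accessory gland list as a whole was lowest in those libraries. Leaving out any w1118, Dis3L2 or double mutant library ended the calls of EbpIII, Apoltp and Mlc2, with adjusted p-values up to 0.196, 0.0915 and 0.207. Heat shock and Turandot genes (19 tested, median -0.03, 2 at an unadjusted p under 0.05), replication-dependent histones (9 tested, median -0.10, 2), ribosomal RNA (17 tested, median -3.33, 5) and Stellate repeats (14 tested, median 0.34, 2) held no call. The midgut list had 3 of 37 called (8.11%), all lysozymes, with a median of -1.51. Its summed level was 261 and 1256 CPM in w1118, 209 and 395 CPM in Tailor, 189 and 102 CPM in Dis3L2 and 84.3 and 91.0 CPM in the double mutant. The part of such tissue in the departures of other genes was not tested beyond the fit with the accessory gland level as a covariate.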

How the data were processed

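Per the labels' protocols, total RNA was made into TruSeq libraries and read as 50 nt pairs on 2 flow cells. The submitters' processing notes name Trimmomatic 0.36, HISAT2 and the dm6 build. The authors deposited raw read counts per feature; the counting tool, gene models, strandedness and treatment of multiply aligned reads were not given in the sources used here. Symbols were matched to the Ensembl release 115 annotation (dm6 coordinates, 1-based), 13553 genes directly and 3775 by an older symbol.

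Counts were analysed with R 4.3.3 and edgeR 4.0.16, with TMM scaling (also used for CPM), filterByExpr with a minimum count of 10, and a quasi-likelihood fit of 8 libraries with group as the only term. P-values were adjusted by Benjamini-Hochberg over 14246 features. The SE is the absolute log2 value divided by the square root of F. The fit was tested on simulated data. Named genes are the targeted genes, the 12 largest called departures in each direction (at least 5 CPM in the highest group and 10 counts in every group), some of those of lowest p in each pattern and list, and genes chosen after their values were seen. The contrast, members and lists were chosen with earlier results of these data known. Alternatives are given in the closing section. P-values measure the spread between 2 dissections. Replicate numbers did not pair the samples.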

Additional observations from a re-analysis of the deposited data

How the results depend on the processing

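Every one of the 581 calls kept its sign under each alternative that tested it, and no result reversed. Counts stayed within 1.5 times of 581 under relative log expression scaling (613), upper quartile scaling (609), limma-voom (498), no filter (783), a minimum count of 50 (565) and without ribosomal RNA (581). DESeq2 called 1096 (563 positive, 533 negative), and a 2-fold minimum 112 (60 and 52). With the accessory gland level as a covariate 1408 were called (744 and 664). A replicate block gave 220 (113 and 107); same-numbered libraries did not deviate together (correlations from -0.299 to 0.299), so the numbers were not taken as pairs. Leaving out 1 library gave 70 to 1882 calls, 33 to 779 positive and 31 to 1103 negative: 70 and 71 without a w1118 library, 1882 and 956 without Tailor replicate 1 or 2, 112 and 85 without a Dis3L2 library, and 74 and 76 without a double mutant library. The lone library was assumed to vary like the other groups. Without w1118 replicate 2 and Tailor replicate 1 together, 732 were called, 265 positive and 467 negative. Without double mutant replicate 2 and Dis3L2 replicate 1 together, a choice made after seeing the data, edgeR called none (0 positive, 0 negative), with 1856 at an unadjusted p under 0.05. The cause of these changes was not tested. With 2 libraries per group, small departures are not detectable at this depth.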
